A study of Mus musculus with 6 samples.

Results

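Pax5 encodes a paired-box transcription factor, also called BSAP, and its locus was described here as a map of open chromatin sites in immature B cells of the mouse spleen. The gene lies on chromosome 4 from 44524748 to 44710694 (mm10) and is transcribed from the higher-coordinate end. Every deposited ATAC-seq peak inside the gene or up to 100 kb from either end was taken, and peaks that overlapped or touched were merged over the 6 libraries. This gave 33 regions, of 70172 in the whole series. ATAC-seq uses the Tn5 transposase, which cuts DNA that is not covered by nucleosomes and adds sequencing adapters to it.

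The cells were sorted as B220+CD93+ from Tcrd-GDL mice, whose γδ T cells express a diphtheria toxin receptor together with reporters from the Tcrd locus. The 3 untreated libraries came from mice of this strain that are labelled as untreated, and a vehicle injection is not named. The 3 DTx libraries came from mice of the same strain given diphtheria toxin into the peritoneum at 15 ng per gram of body weight, with 2 injections 48 h apart, and the cells were taken on day 8 after the first. All 6 libraries share the strain, the organ and the sort gate, and no strain without the receptor and no toxin control without it is among them, so depletion and other effects of the toxin cannot be told apart. The labels number the libraries but do not tie them to separate mice. The p-values therefore measure only how far these samples spread, and that spread may be technical.

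Pax5 is the factor that commits lymphoid progenitors to the B lineage. It activates genes of the B cell receptor complex and its signalling and represses genes of other blood lineages, and it stays on until plasma cell differentiation. Its transcription is known to start from alternative first exons, and an enhancer inside one of its introns is known to be bound by PU.1, IRF4, IRF8 and NF-κB. The gene table used here has no exons, so the regions below are placed by their distance from the annotated start site and not by intron. Openness was measured and enhancer activity was not.

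The annotated promoters of Pax5 and of its upstream neighbour Zcchc7, which encodes a zinc knuckle protein, are shown because each lay under a peak in all 6 libraries and because they anchor the map. Both sequences are from RefSeq (GRCm38.p6, the assembly that mm10 is made from), run 5′ to 3′ from 250 bases before the start site to 50 bases after it, and carry capitals where a GC box (GGGCGG) or a TATA box (TATAAA) matched on either strand. The Pax5 promoter is chr4:44710645-44710944 on the minus strand and that of Zcchc7 is chr4:44756309-44756608 on the plus strand.
Pax5: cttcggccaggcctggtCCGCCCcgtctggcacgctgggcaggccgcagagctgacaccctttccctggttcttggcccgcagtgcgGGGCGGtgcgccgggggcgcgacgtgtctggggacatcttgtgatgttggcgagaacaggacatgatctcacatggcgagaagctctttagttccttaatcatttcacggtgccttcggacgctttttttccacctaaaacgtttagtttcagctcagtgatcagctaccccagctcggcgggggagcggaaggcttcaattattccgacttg
Zcchc7: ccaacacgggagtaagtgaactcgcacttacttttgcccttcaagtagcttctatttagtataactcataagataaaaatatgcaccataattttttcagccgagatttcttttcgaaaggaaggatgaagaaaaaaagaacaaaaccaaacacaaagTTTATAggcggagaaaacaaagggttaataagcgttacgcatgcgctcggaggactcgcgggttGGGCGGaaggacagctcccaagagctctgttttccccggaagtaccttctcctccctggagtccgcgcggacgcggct

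The Pax5 promoter held 2 GC box matches and 23 CpG pairs, and the Zcchc7 promoter 1 GC box match, 1 TATA box match and 18 CpG pairs. Of 32851 promoters of this length, 35.7% held a GC box and 13.6% a TATA box, and the median had 7 CpG pairs. The bases were 59% G or C in Pax5 and 46% in Zcchc7. Neither promoter held a match for the E-box CAGGTG (in 20.2% of promoters), the ETS letters GAGGAA (28.3%), the RUNX letters TGTGGT (16.8%) or the FOXO letters GTAAACA (3.65%). The Pax5 promoter also held no TATA box match. All were searched on both strands, and other forms of these letters were not searched. A missing match says only that these letters are not in these 300 bases. The peaks covered 293, 295 and 293 of the 300 Pax5 bases in untreated replicates 1, 2 and 3 and 290, 293 and 298 in DTx replicates 1, 2 and 3. The Zcchc7 promoter was covered over all 300 bases in each library. A peak touched 34% of the 32851 promoters in all 6 libraries.

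The deposited lists held 36760 to 56503 peaks in the untreated and 44661 to 60811 in the DTx libraries. Untreated replicate 3 and DTx replicate 1 had the layout of the peak caller's narrow mode and the other 4 that of its broad mode. Of 6 B cell marker genes, 5 had a peak within 1 kb of a gene end in all 6 libraries, as did 49.2% of protein-coding genes. Cd3e, Cd8a and Trdc of T cells, Lyz2 and Adgre1 of myeloid cells, Gata1 and Hba-a1 of erythroid cells, and Ncr1 and Klrb1c of natural killer cells had none in any library, as did 40.9% of protein-coding genes. Cd4 had one in 4 libraries, Cd3g in 1, Csf1r in 4, Itgam in 5 and the erythroid factor gene Klf1 in 6, and whether other cells were among those sorted was not tested.

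The map held a small set of sites called throughout and a larger set of weak ones. Of the 33 regions, 11 (33.3%) were called in all 6 libraries, against 44.1% of all regions of the series. Another 10 were called in 1 library, against 18.2% in the series. The 11 shared regions lay 3 upstream of the gene, 1 over its start and 7 inside it. The peaks of the shared regions held between 61.9% and 100% of the window bases under peaks in a library, lowest in DTx replicate 3 and highest in untreated replicate 1, which called nothing else in the window. Strength is given below as the percentile of a peak's −log10 q within its own list, so that 100 is the strongest peak of the library.

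**Figure D1:**
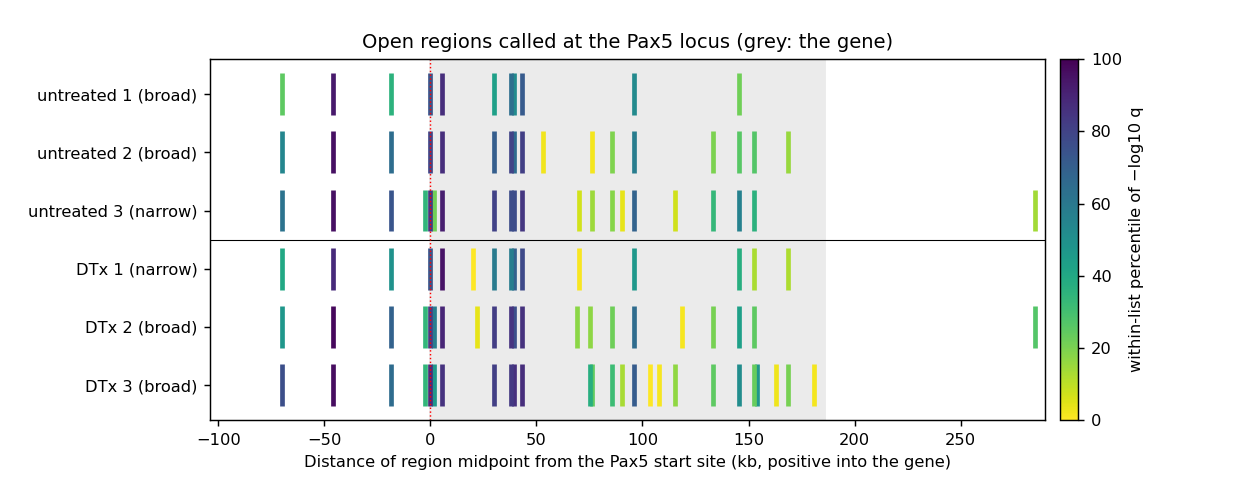
Regions called at the Pax5 locus in each library, placed by the distance of the region midpoint from the Pax5 start site in kb; each tick is 1 region, not drawn to its width, and its colour is the within-list percentile of −log10 q. The 11 columns that run through all 6 libraries are the shared regions, most of them between 70.0 kb upstream and 43.0 kb inside the gene, and the lighter ticks deeper in the gene are weaker calls.

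In 5 of 6 libraries the strongest site inside the gene was not the one at its annotated start. It was the widest region of the locus, 2137 bp (chr4:44704290-44706426), centred 5.34 kb inside the gene and wider than or as wide as 99.1% of all regions. It also reached over the higher-coordinate end of the long noncoding RNA gene 5730488B01Rik, whose strand is not given here. It stood at the 87.0th, 86.9th and 91.5th percentile in untreated replicates 1, 2 and 3 and at the 94.8th, 89.1st and 85.5th in DTx replicates 1, 2 and 3. The groups overlapped, with DTx replicate 1 highest and DTx replicate 3 lowest. Peaks covered between 1770 and 1857 of its bases in 5 libraries and 1078 in DTx replicate 1, and untreated replicate 3 had 2 peaks there.

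The region over the start site (chr4:44710647-44711404, 758 bp) was called in a near-constant outline, 690 to 753 bp in every library. Its percentiles were 73.6, 79.0 and 83.3 in the untreated and 73.2, 82.0 and 87.0 in the DTx libraries, each in replicate order. In 5 of 6 libraries the region 5.34 kb inside ranked above it, and in DTx replicate 3 the start site (87.0) and the regions at 43.0 kb (87.0) and 39.3 kb (86.1) ranked higher than its 85.5. At the opposite end of the gene no library had a peak within 1 kb. The nearest region there (chr4:44529591-44530112) lay inside the gene, was called in DTx replicate 3 alone and stood at the 1.89th percentile.

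A group of 4 shared regions lay between 30.1 and 43.0 kb inside the gene. The farthest of them from the start (chr4:44667390-44668079, centred at 43.0 kb) was the strongest in lowest percentile, with 71.8, 81.6 and 84.2 in the untreated and 77.7, 85.6 and 87.0 in the DTx libraries. A close pair, separated by 0.711 kb, was centred at 39.3 kb (chr4:44671060-44671801) and 37.8 kb (chr4:44672513-44673181). The first of the pair stood at 52.3, 65.5 and 76.6 in the untreated and 69.5, 75.9 and 86.1 in the DTx libraries, the second at 63.8, 79.8 and 76.7 and at 57.9, 84.8 and 83.5. The last of the group, at 30.1 kb (chr4:44680103-44681068), ended 143 bp from the long noncoding RNA gene Gm12462 and ranged from 43.5 in untreated replicate 1 to 82.4 in DTx replicate 2. In each region of the group the lowest value came from untreated replicate 1 or DTx replicate 1, and the groups overlapped.

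Deeper in the gene most sites were called in few libraries. Only 2 of the 19 regions more than 45 kb inside were shared, against 6 of the 9 nearer to or over the start. The division was chosen after seeing the map. Over the series 44.1% of regions were shared. No series share by distance from a start site is set beside these counts, so they are not read as a trait of Pax5. The shared region at 96.2 kb (chr4:44614166-44614888) ranged from the 46.7th percentile in DTx replicate 1 to the 71.1st in DTx replicate 3. The one at 145.4 kb (chr4:44564648-44565876) was the weakest shared region by its lowest value, with 21.7, 25.9 and 56.3 in the untreated and 37.2, 43.7 and 51.3 in the DTx libraries. Its called width differed most of all shared regions, 264 bp in DTx replicate 1 and 1038 to 1229 bp in the other 5 libraries. These 8 regions were all the shared regions in or over Pax5.

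Outside the gene the 2 flanks differed. The 100 kb beyond the lower-coordinate end held 1 region, called in untreated replicate 3 and DTx replicate 2 at the 13.7th and 26.6th percentile. The 100 kb upstream of the start held 4 regions, 3 of them shared. The strongest shared region of the locus in 5 of 6 libraries was the one over the start of Zcchc7 (chr4:44755893-44757259), centred 45.9 kb upstream. It stood at 93.1, 95.7 and 95.9 in the untreated and 88.2, 98 and 96.9 in the DTx libraries, and only in DTx replicate 1 did the region 5.34 kb inside Pax5 rank higher. Between Zcchc7 and Pax5 a shared region 18.5 kb upstream (chr4:44728828-44729625) touched no annotated gene and ranged from 35.8 in untreated replicate 1 to 73.5 in untreated replicate 3. The last, 70.0 kb upstream inside Zcchc7 (chr4:44780454-44781013), ranged from 24.7 in untreated replicate 1 to 76.0 in DTx replicate 3.

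The other 22 regions were called in 1 to 5 libraries and were narrow and weak. Their median width was 376 bp, against 758 bp for the 11 shared regions, while the medians over the series were 354 and 890 bp. By number of libraries, 10 were called in 1, 5 in 2, 4 in 3, 2 in 4 and 1 in 5. The one in 5, 152.4 kb inside the gene (chr4:44557933-44558659), was missing only from untreated replicate 1 and stood between the 12.6th and 36th percentile. The 2 in 4 libraries, at 133.3 and 85.7 kb, were called in 2 of each group. A region 2.79 kb upstream of the start (chr4:44713085-44713874), called in untreated replicate 3 and DTx replicates 2 and 3, stood between 34.0 and 34.6. In 21 of the 22, a count with no series share beside it, each calling list placed the peak below its 50th percentile. The exception lay 1.47 kb inside the gene (chr4:44708944-44709514), between the start site and the strong region, and stood at 21.9 in untreated replicate 3, 57.6 in DTx replicate 2 and 46.2 in DTx replicate 3. Of the 10 regions called once, 5 came from DTx replicate 3, 3 from DTx replicate 2 and 1 each from DTx replicate 1 and untreated replicate 2. No series share by library is set beside these counts, so they are not read as a trait of the locus. The lists held 36760, 42504 and 56503 peaks in the untreated and 44661, 56266 and 60811 in the DTx libraries, in replicate order. The weakest of the 10 regions, at the 0.028th percentile of DTx replicate 3, touched the gene of the microRNA Mir5120 inside Pax5.

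No region of the locus separated the untreated from the DTx libraries by presence. Over the series 0.705% of regions had a peak in each of the 3 DTx lists and in none of the untreated ones, and 0.0242% had the reverse, while the Pax5 window held 0 and 0. More DTx than untreated libraries called 14 regions (36.4% of regions in the series) and the reverse held for 2 (8.8%). In lists cut to the 36760 strongest peaks of each library, the length of the shortest list, 2 of 17 regions were called in more DTx and 4 in more untreated libraries. Over the series the shares in those lists were nearly balanced, 18.4% and 19.8%. All 11 shared regions were also called in all 6 libraries in those lists.

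The region with the largest difference in calls lay 75.1 kb inside the gene (chr4:44635212-44635916). It was called in DTx replicates 2 and 3, at the 17th and 37.2nd percentile, and in no other library. In the series 7.87% of regions were called in at least 2 more DTx than untreated libraries and 0.514% in at least 2 more untreated ones. Without DTx replicate 1 this region counts as called in every remaining DTx and no untreated library, 1 region of the window where there were 0, while the share over the series is then 3.95% in place of 0.705%. No region of the window was called in at least 2 more untreated than DTx libraries. Without untreated replicate 1 the regions called in a larger share of one group were 13 for DTx and 8 for untreated, with series shares of 32% and 16.9%. The count for untreated, 2 in all libraries, was 5 without untreated replicate 2, 5 without DTx replicate 2 and 6 without DTx replicate 3, against series shares of 14.2%, 16.1% and 18.8%, where groups of unequal size make equal shares rarer.

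The number of peaks at the locus rose with the length of the list, with a single exchange of neighbours. The window held 11, 17 and 22 peaks in untreated replicates 1, 2 and 3 and 15, 21 and 26 in DTx replicates 1, 2 and 3. The groups overlapped, and the lowest count came from the shortest list and the highest from the longest. Means were 16.7 ± 5.51 untreated and 20.7 ± 5.51 DTx (SD, n = 3, exact two-sided permutation p = 0.5, where 0.1 is the smallest p possible). Per 10000 peaks of the list they were 3.63 ± 0.553 and 3.79 ± 0.461 (SD, n = 3, exact permutation p = 0.7). In equal-length lists the window held 11, 15 and 13 untreated and 11, 12 and 13 DTx peaks, with a difference of -1 (n = 3, exact permutation p = 0.7). Within the broad-mode lists the means were 14 untreated and 23.5 DTx, and the narrow-mode lists held 22 and 15, the opposite direction.

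The bases of the window under peaks also overlapped between the groups. They were 8178, 10598 and 14093 in the untreated and 7479, 11449 and 15371 in the DTx libraries, lowest in DTx replicate 1 and not in the shortest list. Untreated libraries averaged 10956 ± 2974 bp against 11433 ± 3946 bp with DTx (SD, 3 libraries each), and an exact permutation test gave p = 0.8. The broad-mode means were 9388 and 13410 bp and the narrow-mode values 14093 and 7479 bp. The difference of 477 bp turned to -912 bp without untreated replicate 1 and to -1492 bp without DTx replicate 3. Of the gene itself, between 2.67% (DTx replicate 1) and 6.3% (DTx replicate 3) lay under peaks.

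**Figure D2:**
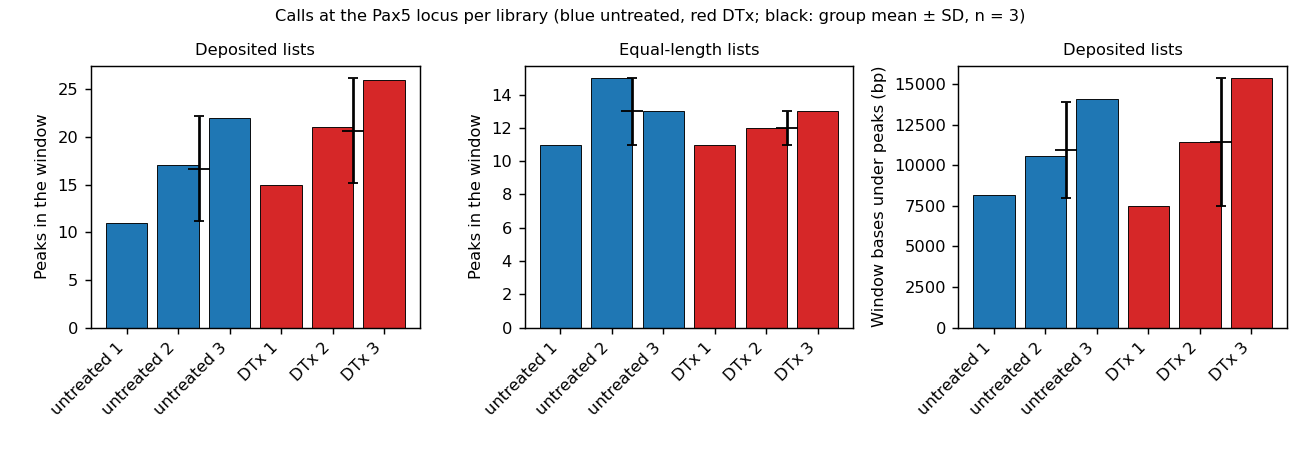
Peaks in Pax5 and 100 kb on either side per library in the deposited lists and in equal-length lists, and the window bases under peaks in bp; bars are libraries and the black marks are group means with SD (n = 3). Both groups span a wide range in the deposited lists, 11 to 22 and 15 to 26 peaks, which narrows to 11 to 15 and 11 to 13 at equal length.

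To compare the strength of the shared regions, each library was ranked over the same 30954 regions called in all 6 libraries, and limma was fitted across all of them with the list mode as a term. None of the 11 Pax5 regions passed an adjusted p of 0.05, and 0% of the 30954 regions did in either direction, with 1286 at an unadjusted p under 0.05 and 0 of the 11. In each of the 11 the untreated and DTx values overlapped. Over the series the DTx values lay wholly above the untreated ones in 3.97% of shared regions and wholly below in 4.77%. With shares this low, overlap in all 11 is not read as a trait of the locus. These percentiles among shared regions are lower than those within the lists, because shared regions are the stronger ones.

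The region 39.3 kb inside the gene had the largest difference in this ranking. Ranked by fold enrichment it was 4.58 points and the region at 96.2 kb had the largest, -13.2, and ranked by pileup it was 3.96 and the region at 30.1 kb had the largest, 5.59. The largest was also another region's without untreated replicate 1 (18.5 kb upstream, -15.5 points), without DTx replicate 3 (70.0 kb upstream, -9.92 points), and without DTx replicate 1 or untreated replicate 3 (30.1 kb, 19 points in each). The last 2 are 1 comparison. With either narrow-mode list left out, the list-mode term fits the other, and only the broad-mode lists set the estimate. The percentiles of the region at 39.3 kb among shared regions were 44.0, 53.2 and 57.6 in the untreated and 56.5, 57.0 and 72.8 in the DTx libraries. DTx minus untreated was 10.5 ± 6.61 points (SE, 95% interval -4.03 to 25.0, limma's adjusted p = 0.966). DTx replicate 3 was the highest and untreated replicate 1 the lowest, and untreated replicate 3 exceeded the other DTx values. Its neighbour at 37.8 kb, in the same close pair, differed by -1.85 ± 6.36 points (SE, limma's adjusted p = 0.998).

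At the start site the percentiles were 68.7, 71.3 and 69.6 untreated and 61.7, 67.4 and 74.6 DTx. The untreated values lay close together and inside the DTx range. The difference was -1.95 ± 4.58 points (SE, 95% interval -12 to 8.09, limma's adjusted p = 0.993). The strong region at 5.34 kb had 84.5, 82.0 and 84.5 untreated and 92.5, 80.2 and 71.6 DTx, again a narrow untreated range inside a wide DTx one. Other shared regions, among them those at 145.4 kb and 18.5 kb upstream, had the wider spread in the untreated libraries. Spread was not tested. The difference at 5.34 kb was -2.27 ± 3.72 points (SE, 95% interval -10.4 to 5.88, limma's adjusted p = 0.983). The Zcchc7 start region differed by -1.78 ± 2.28 points (SE, 95% interval -6.8 to 3.23), the narrowest interval of the 11.

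The remaining differences were of either sign. The region at 96.2 kb was lower in DTx by mean, with 44.3, 43.8 and 43.8 untreated and 28.2, 39.8 and 45.4 DTx, and a difference of -6.18 ± 6.78 points (SE, limma's adjusted p = 0.977). Here DTx replicate 3 exceeded all 3 untreated values. The region 18.5 kb upstream differed by -5.8 ± 8.64 points and the one at 30.1 kb by 5.32 ± 9.05 (SE). Differences at 43.0 kb, 145.4 kb and 70.0 kb upstream were between 1.25 and 2.1 points. The widest interval, 70.0 kb upstream, ran from -20.4 to 24.6 points, so differences of that size could not be told from 0 there with 3 libraries a group.

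**Figure D3:**
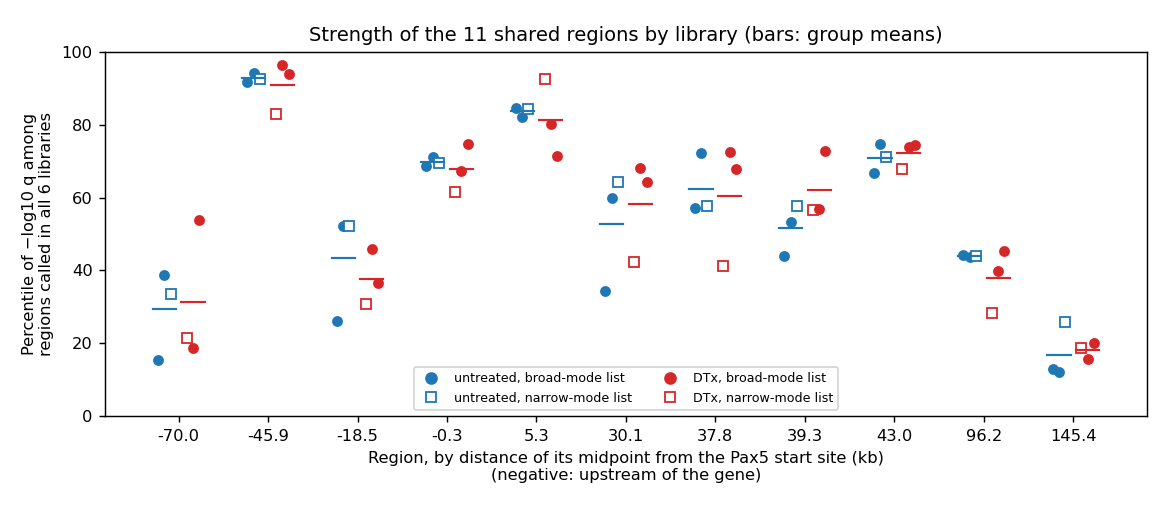
Percentile of −log10 q among the regions called in all 6 libraries, for the 11 shared regions of the locus ordered by distance from the Pax5 start site in kb; points are libraries (blue untreated, red DTx, open squares narrow-mode lists) and lines are group means. The groups overlap at every region, from 12 to 25.8 at 145.4 kb to 83.0 to 96.3 at the Zcchc7 start.

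Called width did not separate the groups either. The limma fit on log2 of the bases under peaks called 0% of the 30954 shared regions in either direction, with 578 at an unadjusted p under 0.05 and 0 of the 11 here. Differences at the locus ran from -0.72 ± 0.46 at 145.4 kb, where DTx replicate 1 was narrow, to 0.22 ± 0.24 at 43.0 kb (SE, log2 scale, limma's adjusted p = 1 for each). The start site region differed by -0.04 ± 0.15 on that scale, with a 95% interval of -0.4 to 0.32.

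**Figure D4:**
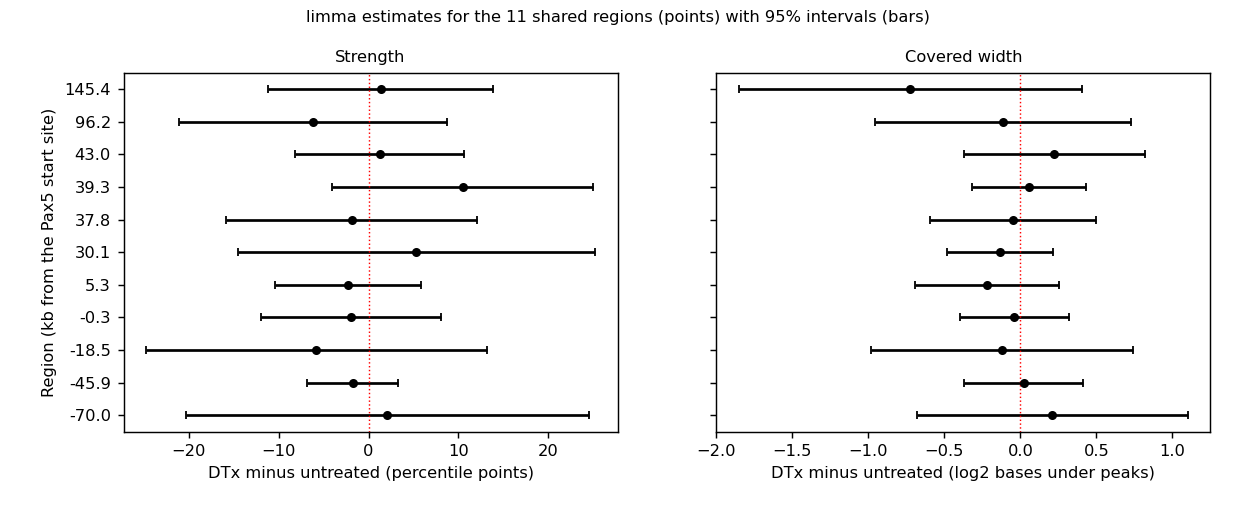
Estimated DTx minus untreated difference (points) with 95% interval (bars) for the 11 shared regions, in percentile points for strength and in log2 bases for covered width. Every interval includes 0, and those of the Zcchc7 start (-45.9 kb) and of the strong region at 5.3 kb are among the narrowest for strength.

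Genes known to regulate Pax5 were nearly all open at an end. A peak within 1 kb of a gene end was called in every library for 9 of 10 regulators, against 49.2% of protein-coding genes. Tcf3, which encodes the E2A proteins, was the strongest, between the 98.4th and 99.7th percentile. Ebf1, whose product acts with Pax5 in B cell commitment, stood between 78.1 and 92.6, Irf4 between 76.2 and 88.2, and Spi1, which encodes PU.1, between 62.0 and 78.6. Myb was the exception, called in 3 untreated and 2 DTx libraries and at most at the 44.0th percentile.

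Of 16 genes that Pax5 is known to activate, 12 were called at an end in every library, against 49.2% of protein-coding genes. Cr2, the complement receptor gene, stood between 93.9 and 97.6, Siglecg, an inhibitory lectin gene, between 87.6 and 97.4, and Blnk, an adaptor of receptor signalling, between 84.3 and 90.4. Lef1 was called in 2 untreated libraries, at 60.6 and 74.1, and in 0 DTx libraries. In the series 0.178% of protein-coding genes had at least 2 more untreated than DTx calls and 0.896% the reverse. The complement regulator gene Cd55 was called in 1 untreated and 2 DTx libraries, at no more than the 26.7th percentile.

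Genes that Pax5 is known to repress were of mixed kind at their ends. Of 13, 8 were called at an end in every library, a share not far from the 49.2% of all protein-coding genes. They included Prdm1, which encodes the plasma cell factor Blimp-1, between the 85.0th and 90.9th percentile, Xbp1 between 73.3 and 93.6, Flt3 between 56.9 and 78.7, and the weaker Jchain between 20.8 and 54.1 and Cd28 between 19.5 and 42.0. Ccr2 had none in any library, as did 40.9% of protein-coding genes. Csf1r was called in 3 untreated and 1 DTx library, never above the 14.5th percentile, and Lmo2 in 1 untreated and 3 DTx libraries, between 44.8 and 57.7. A gene-end peak does not measure transcription.

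Of the 9 genes of the Pax family, Pax5 was the 1 with a gene-end peak in all 6 libraries, against 49.2% of protein-coding genes, and 6 had none in any, against 40.9%. Pax1, Pax4, Pax6, Pax7, Pax8 and Pax9, factors of other tissues, were the 6 never called. Pax3 had one in 1 untreated and 2 DTx libraries and Pax2 in 1 DTx library, at no more than the 10.5th and 6.85th percentile.

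Set beside other large loci of B cell transcription factors, Pax5 had fewer shared regions for its length. It held 8 in or over the gene body, more than 98.8% of protein-coding genes, and 4.3 per 100 kb. Ebf1 held 4.87, Bach2 4.89 and Foxp1 7.03 per 100 kb, and among the 2429 protein-coding genes of 100 kb or more, 90.9% had a lower density than Pax5. The share of window regions called in all 6 libraries was 33.3% for Pax5, 48.3% for Ebf1, 45.2% for Bach2 and 46.3% for Foxp1. These shares were not tested against each other. As at Pax5, more regions were called in more DTx than untreated libraries at each. The counts were 15 against 5 of 60 regions at Ebf1, 24 against 4 of 62 at Bach2 and 35 against 10 of 95 at Foxp1. Over all regions of the series the shares were 36.4% and 8.8%, so the direction is that of the whole series.

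The genes whose peak counts over the 6 equal-length lists were most like those of Pax5, by the mean absolute difference in the number of peaks in the gene and 100 kb on either side, were Zfpm1, Slc15a3, Alkbh4 and Ifng, each at 0.333 peaks, and Plcg2 at 0.5. Plcg2 is one of many genes tied at 0.5 and was taken for its gene length, the nearest to that of Pax5. Of 21887 protein-coding genes, 29 lay within 0.5 peaks and over 1 Mb away. Their windows differ in length, from 4.85 kb of gene for Ifng to 136.9 kb for Plcg2 with the same flanks, against 185.9 kb for Pax5.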

How the data were processed

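Each of the 6 ATAC-seq libraries has 1 peak list. The tools named, per the submitters' processing notes, are MACS2 2.1.1, Bowtie2 2.3.2 and Trim Galore 0.4.3, with the mm10 build. How Tn5 cut sites and duplicates were handled, and the read totals, were not given in the sources used here, so depth is unknown. Per the file headers, the deposited lists give position, pileup (coverage signal) and fold enrichment as a ratio. The −log10 of p-values and q-values sit in columns whose deposited headers are damaged, and were identified by order and values. All are the authors' values per peak, used to rank or filter within a list.

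Each list's 2 peaks on the mitochondrial genome were dropped. A region counts as called in a library when any of its peaks overlaps it by 1 bp or more. Strength and log2 bases of regions called in all 6 libraries were fitted with limma 3.58.1 (R 4.3.3, trend and robust, group plus list mode) and adjusted by Benjamini-Hochberg, and the fit was tested on simulated data. Single values per library had an exact permutation test over 20 relabellings. Python 3.11.15, NumPy 2.4.6, pandas 2.3.3 and matplotlib 3.10.9 were used.

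The members, gene lists and tests were chosen with earlier results of these data known. Every region is accounted for. Named with values were the regions at the gene ends, the 8 shared regions in or over the gene, the widest, and those differing by at least 2 libraries. Of the lists, members differing by at least 2 libraries or never called were named, and further examples were chosen after their values were seen. Some list members are counted but not reported here by name. Alternatives changed list length, threshold, window, merging, overlap, ranking, model terms and the libraries included.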

Additional observations from a re-analysis of the deposited data

How the results depend on the processing

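The sign of the DTx difference in peak number and bases turned with list length and list mode. In equal-length lists it was -1 peak and -893 bp, and in the narrow-mode lists alone -7 peaks and -6614 bp, against 4 peaks and 477 bp in the deposited lists. Leaving out 1 library in turn gave 1.17 to 6.83 peaks and -1492 to 2454 bp. Regions called in more DTx libraries were 14 of 33 in the deposited lists, against 36.4% over the series. They were 2 of 17 in equal-length lists (18.4% over the series) and 7 of 22 at a −log10 q of at least 5 (36.4%). With 1 library left out they were 11 to 20, where the series shares ran from 32% to 47.5%. Regions called in more untreated libraries were 2 of 33 in the deposited lists, against 8.8% over the series. They were 4 of 17 in equal-length lists (19.8% over the series) and 4 of 22 at that threshold (12%). Where peaks had to cover at least 50% of the region they were 5 of 33 (15%). With 1 library left out they were 2 to 8, where the series shares ran from 6.9% to 18.8%. Regions called in DTx only were 0 to 1 with 1 library left out, against series shares of 0.918% to 3.95%. Those called throughout were then 11 to 12, against series shares of 45.6% to 51.1%. At a −log10 q of at least 5 those called throughout were 9 of 22 (39.7% over the series). Under the 50% cover they were 8 of 33 (28.5% over the series), against 11 of 33 (44.1%) in the deposited lists. The cause was not tested.

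Taking each number as a block, the peak difference of 4 and the base difference of 477 bp had sign-flip p-values of 0.25 and 0.5 in an exact permutation test, where 0.25 is the smallest possible, and the limma fits called 0 of the 11 regions. Over all shared regions the blocked limma fit called 5 for strength instead of 0. Deviations of same-numbered libraries from their group means correlated at 0.187, 0.0583 and -0.0751. The highest correlation was between untreated replicate 2 and DTx replicate 3 (0.357). Libraries numbered 1 and 3 differ in list mode between the groups, and each mean rests on 3 libraries. Whether the numbers pair the libraries therefore cannot be told from these values.

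None of the 11 strength differences passed the threshold under any alternative, with a lowest adjusted p of 0.693, and 19 of 130 recomputed values changed sign. The fits without the list-mode term and with the block could not change a sign, because both terms are balanced over the groups. Leaving out DTx replicate 1 and leaving out untreated replicate 3 gave identical estimates, whose sign changes are counted for each. The tally is therefore not a measure of stability. Ranking by fold enrichment gave -2.01 points at 145.4 kb and -0.55 at 43.0 kb, and ranking by pileup 0.33 at 5.34 kb. With 1 library left out the range was -1.11 to 5.53 at 145.4 kb, -1.71 to 3.51 at 43.0 kb, 4.28 to 16.3 at 39.3 kb, -8.24 to 5.42 at 37.8 kb, -9.15 to -1.44 at 96.2 kb, -5.91 to 19 at 30.1 kb, -7.43 to 1.66 at 5.34 kb and -4.87 to 1.05 at the start site. Upstream it was -15.5 to 1.98 at 18.5 kb, -3.6 to 2.08 at the Zcchc7 start and -9.92 to 10.1 at 70.0 kb. The width difference ran from -0.99 to 0.024 on the log2 scale at 145.4 kb and from 0.05 to 0.42 at 43.0 kb. The positive value at 145.4 kb came without DTx replicate 1 and without untreated replicate 3, which give the same estimate. Peak lists without read totals give no limit of detection, so a region that was not called may be below the caller's threshold.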

Other observations

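The order of the shared regions differed between the authors' fold enrichment and their −log10 q. The highest fold was at the Zcchc7 start in untreated replicates 1 and 2 and DTx replicates 1 and 2, at 8.93, 8.76, 14.6 and 9.73. It was at 18.5 kb upstream in untreated replicate 3 (16.4) and at 70.0 kb upstream in DTx replicate 3 (9.67). At the widest region, 5.34 kb inside Pax5, fold was 5.03, 4.40 and 10.1 in the untreated and 13.4, 4.11 and 3.57 in the DTx libraries. It was highest in the 2 narrow-mode lists, which is not particular to this region. The same held at every other shared region except the one 70.0 kb upstream. At that one DTx replicate 3 (9.67) exceeded DTx replicate 1 (9.53).

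Peak summits were listed in untreated replicate 3 and DTx replicate 1. They lay within 50 bp of each other in 7 of the 11 shared regions, with a median distance of 42 bp, while over all shared regions of the series the median was 16 bp and 78.4% lay within 50 bp. At the start site the summits were 163 and 98 bp upstream of the annotated start, and in the widest region 6042 and 6093 bp inside the gene, beyond its midpoint.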
